A study of Homo sapiens with 12 samples.

Results

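The mitochondrial ribosomal protein genes were followed in HepG2 cells, a human hepatocellular carcinoma line, in which the level of thiosulfate sulfurtransferase (TST) had been altered. Members were the protein-coding genes whose symbol is MRPL or MRPS followed by a number, and by a letter from A to D where there is one. The files held 78 such genes among 57500, 49 with an MRPL symbol and 29 with an MRPS symbol. All 78 passed the filter on low counts in every comparison, and their read counts ran from 92 to 10040 per library.

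TST (rhodanese) is a mitochondrial enzyme that converts cyanide to thiocyanate, and the study used it to vary endogenous cyanide. Each of 3 groups had 4 replicates by their labels. One was the unmodified line (WT), another carried a short hairpin RNA against TST (shTST) and the other overexpressed TST (overTST), and all were kept in normal medium with 400 µM glycine for 24 h. The engineered cells were made with lentivirus, the overTST cells with a codon-optimized, tagged TST under the CMV promoter, and blasticidin was used to select transduced cells. The sources do not describe an empty-vector control among these libraries, so TST level and the making of the lines cannot be told apart.

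Libraries held 28866175 to 45120508 counts in WT, 27527854 to 33865386 in shTST and 22911380 to 27414142 in overTST. TST itself, in counts scaled to library size by TMM (CPM), was at 47.2 to 52.8 in WT, 33.0 to 36.6 in shTST and 51.8 to 62.1 in overTST. The log2 fold change against WT was −0.52 in shTST (edgeR adjusted p = 3.2e-06) and 0.24 in overTST (edgeR adjusted p = 0.00384), and in overTST it was 0.097 after an exonic length offset, described with the length results (edgeR adjusted p = 0.201). Reads of a codon-optimized transgene need not map to the native gene, so these counts cannot show how much TST the overTST cells made. The 8 hepatocyte markers examined lay between 72.1 CPM (TTR) and 8342 CPM (ALB) over the 12 libraries. They moved in both directions in each line. APOB was lower in overTST than in WT (log2 fold change −0.55, edgeR adjusted p = 1.5e-06). APOA1 (0.24, edgeR adjusted p = 0.0167) and TTR (0.16, edgeR adjusted p = 0.0197) were higher there. With the exonic length offset APOA1 was at 0.07 (edgeR adjusted p = 0.455) and TTR at 0.03 (edgeR adjusted p = 0.635). APOB stayed lower with it (−0.36, edgeR adjusted p = 8.3e-05), FGB was called lower (−0.16, edgeR adjusted p = 0.0223) and TF higher (0.27, edgeR adjusted p = 0.032). In shTST, ALB (0.39, edgeR adjusted p = 0.00139), AFP (0.49, edgeR adjusted p = 0.000215), FGB (0.44, edgeR adjusted p = 6.0e-06) and TF (0.41, edgeR adjusted p = 0.00185) were higher than in WT. TTR (−0.33, edgeR adjusted p = 7.7e-05) and APOB (−0.19, edgeR adjusted p = 0.0266) were lower in shTST. The 7 markers of leukocytes, endothelium and fibroblasts did not exceed 3.5 CPM, with PTPRC at or below 0.0335. Of these PECAM1, an endothelial marker, was at 1.87 to 2.39 CPM in WT and 3.001 to 3.5 in overTST (log2 fold change 0.60, edgeR adjusted p = 0.00278), while VWF stayed at or below 0.355 CPM. The part of these differences in the members' values was not tested. Each WT library was compared with the mean of the other WT libraries on the log2 scale. WT replicate 2 had 8 of the 78 members above that mean and WT replicate 3 had 67. Leaving out each library in turn gave 41 to 49 members called higher in overTST against WT.

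The mitochondrial ribosome translates the few proteins that the mitochondrial genome encodes, which are core subunits of the respiratory chain and of ATP synthase. Its ribosomal RNAs are made in the mitochondrion, whereas its proteins are encoded in the nucleus, translated in the cytosol and imported. Many of these proteins have a counterpart in the bacterial ribosome, and others exist only in mitochondria, where some take the place of rRNA segments lost in evolution. Of the 78 members, 30 are large-subunit proteins with a bacterial counterpart, 21 are large-subunit proteins specific to mitochondria, 16 are small-subunit proteins with a bacterial counterpart and 10 are small-subunit proteins specific to mitochondria. MRPS18A and MRPS30 carry small-subunit names but sit in the large subunit, and are counted there. The remaining member, MRPS36, is now assigned to the oxoglutarate dehydrogenase complex.

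The promoters were examined because the members are nuclear genes that need to be made in concert with the mitochondrial genome. Of the 78 members, 69 had a promoter stretch in RefSeq (GRCh38.p14), which runs from 250 bases before to 50 bases after the start. Exact matches were searched on both strands for 6 short motifs, spelled out here with the share of the 69 members and of all 27305 promoters that held them. The core of the site of NRF1, a regulator of nuclear genes for mitochondrial proteins (GCGCATGC), was in 6 members (8.70%, against 3.27% of all promoters). The ETS site that GABP binds (CCGGAAGT) was in 11 (15.9% against 4.44%). The YY1 core (AAGATGGCG) was in 13 (18.8% against 1.85%), the GC box (GGGCGG) in 42 (60.9% against 44.6%) and the E-box (CACGTG) in 6 (8.70% against 7.43%). The cyclic AMP response element (TGACGTCA) was in 0 of 69, against 1.98%. The 27305 promoters include those of genes that were not tested here, whereas all members were. Of the genes outside the family tested in overTST against WT, 567 held the NRF1 core and 9422 did not. These counts describe letters in the sequence and say nothing of binding.

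The 6 members with the NRF1 core are shown, since each of them was called higher in overTST than in WT. They were chosen after their values had been seen. Capitals mark the core, and each stretch is given 5′ to 3′ on the strand of the gene. For MRPL22 all 250 bases before the start are given, on the plus strand at chr5:154940823-154941072. The other stretches are at chr11:6683388-6683447 (MRPL17, minus strand), chr7:42932311-42932370 (MRPL32, plus), chr14:22829686-22829745 (MRPL52, plus), chr6:30617791-30617839 (MRPS18B, plus) and chr4:83455896-83455955 (MRPS18C, plus).
MRPL22: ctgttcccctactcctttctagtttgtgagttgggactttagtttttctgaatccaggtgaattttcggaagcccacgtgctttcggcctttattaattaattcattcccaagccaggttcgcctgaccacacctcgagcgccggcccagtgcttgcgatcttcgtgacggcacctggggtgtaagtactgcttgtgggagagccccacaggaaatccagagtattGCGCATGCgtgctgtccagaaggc
MRPL17: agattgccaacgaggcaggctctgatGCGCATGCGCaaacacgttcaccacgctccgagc
MRPL32: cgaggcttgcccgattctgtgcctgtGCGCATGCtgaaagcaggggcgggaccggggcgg
MRPL52: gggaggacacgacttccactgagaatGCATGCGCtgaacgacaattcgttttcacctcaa
MRPS18B: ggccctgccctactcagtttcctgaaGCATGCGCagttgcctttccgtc
MRPS18C: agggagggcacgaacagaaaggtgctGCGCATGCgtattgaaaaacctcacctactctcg
In MRPL52 and MRPS18B the core is on the opposite strand. In MRPL17 it reads on both strands at this place, in overlapping bases. It was counted 3 times in that promoter stretch, with each of the overlapping reads counted. The printed core begins 24 bases before the start in MRPL22, 23 in MRPS18B, 39 in MRPL32, 81 in MRPL17, 136 in MRPS18C and 175 in MRPL52.

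All members were expressed in WT cells, over a wide range. Per kilobase of exon (RPKM, the CPM divided by exonic length), the median over the 78 members was 21.5, from 2.835 to 126.5, and 45 members lay within 2-fold of that median. The highest levels were those of MRPL14 (126.5 ± 9.16 RPKM, SD, n = 4), a large-subunit protein at the interface of the subunits, MRPS34 (117.5 ± 6.52) and MRPS26 (99.9 ± 6.496), both small-subunit proteins specific to mitochondria. The lowest were MRPL53 (2.835 ± 0.439 RPKM), MRPL42 (3.45 ± 0.0998) and MRPS6 (3.54 ± 0.114). The level per kilobase rests on the exonic length, which is 16393 bases for MRPL42 and 959 for MRPL14. Replicates were close, with a median coefficient of variation over the members of 5.23% in WT, 4.19% in shTST and 5.33% in overTST.

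**Figure D1:**
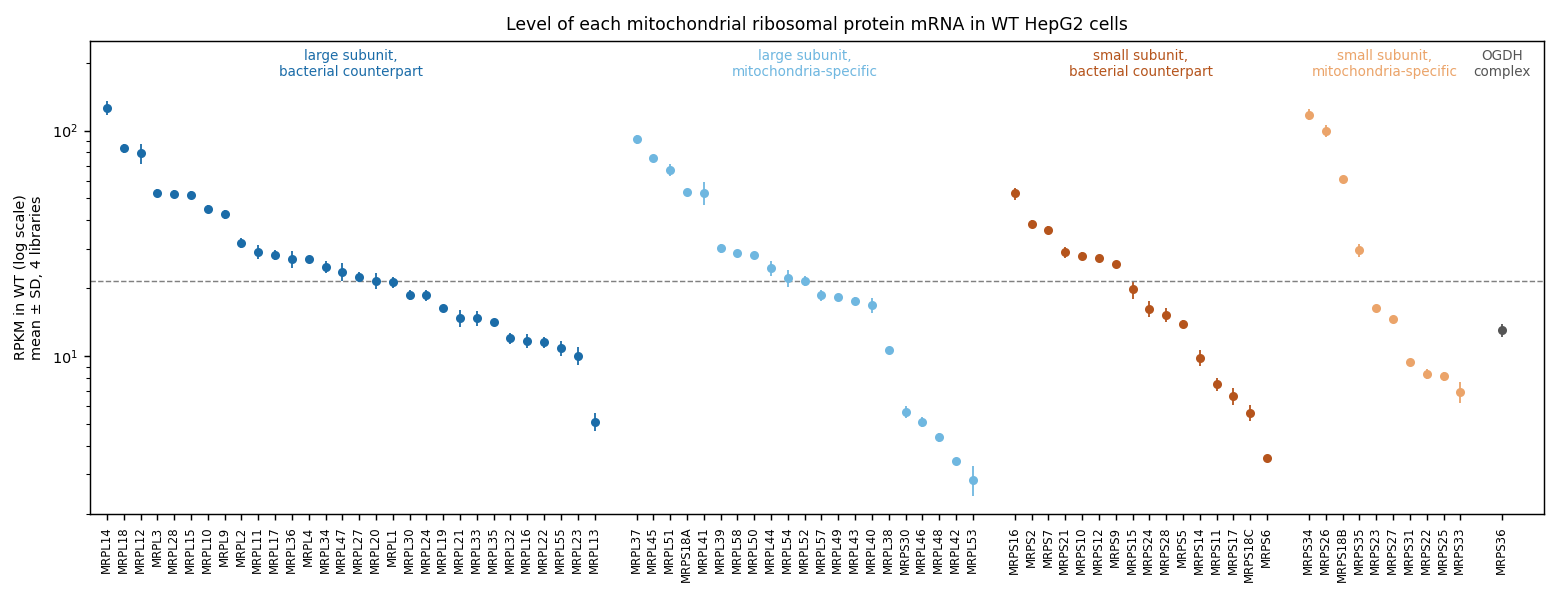
Level of each of the 78 members in WT cells, in RPKM on a log axis, ordered within its role; points are means and bars the SD over 4 libraries, and the dashed line is the median of 21.5. Each role holds both high and low members, and MRPL14 is highest at 126.5 RPKM.

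With TST overexpression 48 of the 78 members rose against WT, by small amounts, and 1 was called lower (edgeR's quasi-likelihood test, adjusted p of 0.05 or less over all genes). The count depended on transcript length: with offsets for length, described with the length results, 32 or 25 members were called higher. Over the 14421 genes tested, 15.7% were called higher and 18.2% lower. The median log2 fold change of the members was 0.20, against 0.00 over all genes tested, and 68 of the 78 were above 0 (60 with the exonic and 50 with the transcript length offset). The changes were modest, 1.37-fold at most, and 30 of the members called higher reached 1.2-fold. In 42 members every overTST library lay above every WT library, which held for 14.2% of the genes tested. Summed over the members, WT libraries had 4697 to 5144 CPM and overTST libraries 5338 to 5768, without overlap. In bulk RNA, more mRNA per cell and more cells that express a gene cannot be told apart.

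**Figure D2:**
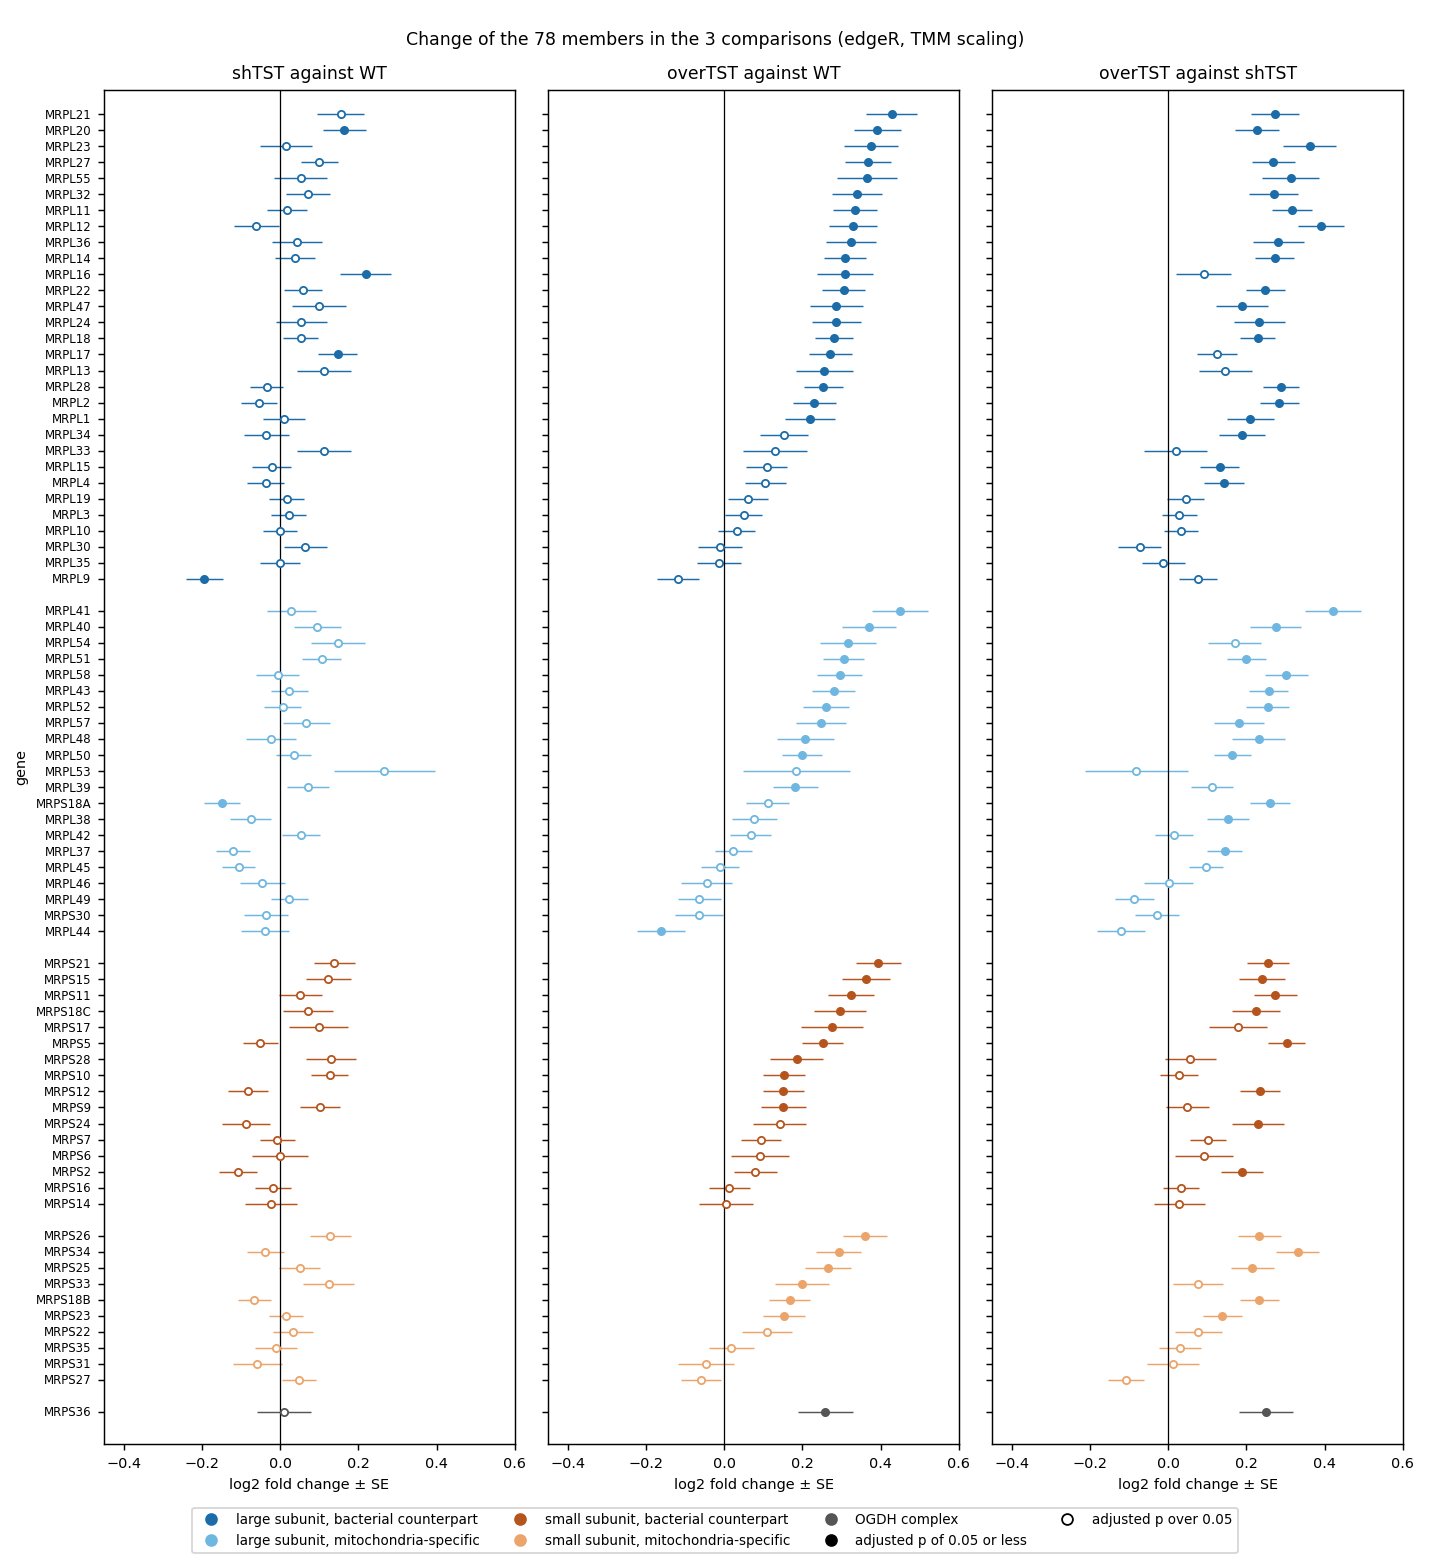
Log2 fold change of the 78 members in the 3 comparisons, with the SE as bars, grouped by role and ordered by the change in overTST against WT; filled points have an adjusted p of 0.05 or less. In both comparisons of overTST most points lie right of 0, with MRPL41 farthest right, without a length offset, and in shTST against WT they lie around 0.

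In the large subunit, 20 of the 30 proteins with a bacterial counterpart rose in overTST and 0 of the 30 fell, with a median log2 fold change of 0.28. MRPL21 was at 45.2, 37.4, 43.5 and 40.5 CPM in the WT libraries and at 52.6, 61.5, 54.8 and 55.0 in overTST. Every overTST library was above every WT library, and on the log2 scale the difference was 0.43 (SE 0.065, edgeR adjusted p = 2.2e-05). MRPL20, the counterpart of a bacterial protein needed for early large-subunit assembly, stood at 62.3, 53.9, 65.1 and 59.6 CPM in WT and at 73.6, 84.6, 79.0 and 78.6 in overTST (log2 fold change 0.39, SE 0.060, edgeR adjusted p = 2.5e-05). MRPL27, whose bacterial counterpart reaches towards the peptidyl transferase centre, went from 67.9 ± 3.32 to 87.6 ± 7.37 CPM (SD, n = 4 each), which is 0.37 on the log2 scale (edgeR adjusted p = 4.1e-05). The groups did not overlap for either gene. MRPL11, at the base of the stalk that recruits translation factors, rose by 0.33 on the log2 scale (edgeR adjusted p = 7.3e-05).

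The stalk is built from MRPL10, which anchors it, and MRPL12, its mobile part, and these differed. MRPL12 was at 75.5, 77.1, 93.3 and 79.8 CPM in WT, 77.2, 74.2, 82.4 and 77.96 in shTST and 93.8, 105.1, 106.1 and 103.9 in overTST. All 4 overTST libraries were above the others, and the log2 fold change was 0.33 against WT (SE 0.061, edgeR adjusted p = 2.0e-04) and 0.39 against shTST (SE 0.059, edgeR adjusted p = 2.4e-05). Exons of MRPL12 are shared over 68.2% of their length with another annotated gene (AC139530.2), so its counts are uncertain. MRPL10 was at 120.4 to 131.4 CPM in WT and 124.8 to 128.4 in overTST, with a log2 fold change of 0.03 (SE 0.048, edgeR adjusted p = 0.646). The difference between the changes of MRPL10 and MRPL12 was not tested.

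Of the 21 large-subunit proteins specific to mitochondria, 11 rose in overTST and 1 fell, with a median of 0.18. MRPL41, on chromosome 9 from 137551199 to 137552555 (GRCh38, plus strand), had the largest change of all members. Its WT libraries were at 60.0, 62.0, 76.7 and 68.5 CPM, its shTST libraries at 64.3, 66.5, 72.9 and 68.3, and its overTST libraries at 77.6, 98.3, 92.0 and 96.8. The lowest overTST library was just above the highest WT library, and the log2 fold change was 0.45 (SE 0.072, edgeR adjusted p = 4.4e-05). MRPL58, a peptidyl-tRNA hydrolase built into the large subunit that frees stalled ribosomes, was at 30.2 to 32.8 CPM in WT and 38.1 to 39.4 in overTST (log2 fold change 0.30, SE 0.058, edgeR adjusted p = 3.6e-04).

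MRPL44, which has a fold like that of RNase III, was the member called lower. It was at 47.6, 42.0, 42.4 and 39.9 CPM in WT and at 40.3, 38.2, 37.1 and 37.9 in overTST, so the groups overlapped. The log2 fold change was −0.16 (SE 0.062, edgeR adjusted p = 0.0476), and DESeq2 (adjusted p = 0.0512) and limma-voom (adjusted p = 0.0551) did not call it. Without WT replicate 1 it was −0.11 (edgeR adjusted p = 0.216), and the call was also lost without WT replicate 3 (0.0583) and without overTST replicate 2 (0.0927), 3 (0.132) or 4 (0.0945).

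In the small subunit, 10 of the 16 proteins with a bacterial counterpart rose (median 0.15), and so did 6 of the 10 specific to mitochondria (median 0.16), and none of these 26 was called lower. MRPS21 was at 46.9, 44.5, 47.4 and 50.6 CPM in WT and at 57.4, 63.5, 64.9 and 63.1 in overTST (log2 fold change 0.39, SE 0.058, edgeR adjusted p = 1.4e-05), the smallest p of any member in this comparison. It has 8 annotated pseudogenes that carry its name, so reads could be shared with them. MRPS11, a protein of the platform of the small subunit, was at 38.7, 43.5, 45.1 and 41.7 CPM in WT and 51.8, 53.4, 55.9 and 50.4 in overTST (log2 fold change 0.32, SE 0.059, edgeR adjusted p = 1.6e-04). MRPS26 rose from 112.5 ± 7.32 to 144.4 ± 8.99 CPM (SD, n = 4 each; log2 fold change 0.36, edgeR adjusted p = 2.8e-05). MRPS34, which stabilises the small-subunit rRNA, went from 128.9 ± 7.16 to 157.9 ± 13.7 CPM (log2 fold change 0.29, edgeR adjusted p = 4.0e-04), and its lowest overTST library, at 138.2, was below the highest WT library, at 139.3.

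The 3 proteins named for bacterial S18 take different places in the ribosome and had different values. MRPS18C, which takes the place of the bacterial protein, went from 27.3 ± 2.16 CPM in WT to 33.5 ± 0.873 in overTST (SD, n = 4 each; log2 fold change 0.30, edgeR adjusted p = 0.00131). Exons of MRPS18C are shared over 40.2% of their length with ABRAXAS1. MRPS18B was at 114.2, 115.5, 115.6 and 114.2 CPM in WT and at 123.0, 142.9, 125.2 and 124.9 in overTST (log2 fold change 0.17, SE 0.052, edgeR adjusted p = 0.0142). Replicate 2 stood apart in overTST, and without it the change was 0.12 on the log2 scale (edgeR adjusted p = 0.0829). MRPS18A, in the large subunit, had a log2 fold change of 0.11 in overTST (SE 0.054, edgeR adjusted p = 0.119). MRPS30, also in the large subunit, was at −0.06 (SE 0.061, edgeR adjusted p = 0.443), and it was called lower with the transcript length offset only. MRPS36 rose with the ribosomal members, from 19.96 ± 1.34 to 23.9 ± 1.03 CPM (log2 fold change 0.26, SE 0.071, edgeR adjusted p = 0.00629).

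The changes in overTST moved with transcript length over all genes, and the members are short. The main transcript of a member (its longest principal one) had a median of 1458.5 bases, from 518 to 15582. Across genes, the rank correlation (Spearman's rho) between transcript length and the change was −0.47 over all genes tested and −0.45 over the 78 members. These are descriptions, since genes of a library share its preparation. Among transcripts of up to 1000 bases, 11 of 15 members were called higher (73.3%), against 31.0% of 1453 other genes. From 1000 to 2000 bases 29 of 47 members were (61.7%), against 28.8% of 2891 other genes, and from 2000 to 4000 bases 5 of 12 (41.7%), against 12.3% of 5423. Above 4000 bases 3 of 4 members were called higher, MRPS23, MRPS25 and MRPS33, against 5.84% of 4537. The members' share was above that of other genes in each class, though the last class has 4 members. A share called also depends on read counts. Other genes were not matched to the members on these, so the gap in shares is not a measure of the size of change. The medians lay closest together from 2000 to 4000 bases and farthest apart above 4000 bases. The members' median log2 fold change was 0.30 up to 1000 bases, against 0.24 for other genes, and 0.22 against 0.13 from 1000 to 2000 bases. It was 0.037 against −0.002 from 2000 to 4000 bases, and 0.18 against −0.16 above 4000 bases.

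Offsets that remove the length trend lowered the number of members called. With an offset for exonic length 32 members were called higher and 3 lower, where 14.2% of all genes were called higher and 14.3% lower, and the members' median log2 fold change was 0.12. With an offset for transcript length 25 were higher and 4 lower, where 12.3% of all genes were called in each direction, and the median was 0.09. The sign of the change turned in 14 members with the first offset and in 20 with the second, of which MRPS12 and MRPS28 had been called higher without it. Among the 16 small-subunit proteins with a bacterial counterpart, 16 were above 0 without an offset and 8 with that for transcript length. By role, the transcript length offset left 10 of 30 large-subunit proteins with a bacterial counterpart and 6 of 21 specific to mitochondria called higher. In the small subunit it left 5 of 16 and 4 of 10. With both offsets, as without one, 23 members were called higher. These were 14 of the large subunit (MRPL11, MRPL12, MRPL17, MRPL20, MRPL21, MRPL22, MRPL23, MRPL27, MRPL28, MRPL55, MRPL40, MRPL41, MRPL50 and MRPL51) and 9 of the small subunit (MRPS5, MRPS11, MRPS15, MRPS18C, MRPS21, MRPS23, MRPS25, MRPS26 and MRPS33). What part of the members' rise goes with length was not tested beyond these offsets.

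Among named members with longer transcripts, MRPL22, MRPS11 and MRPL42, the changes were kept or larger under the offset. That direction follows from how the offset works, since it raises the change of genes at lengths where the trend is below 0. Without it, the median of other genes was −0.04 from 2800 to 4000 bases and −0.20 above 8000 bases. MRPL22, which lines the exit tunnel and has the NRF1 core in its promoter, has a transcript of 3176 bases. It was at 62.7, 56.1, 60.2 and 63.5 CPM in WT, 64.2, 63.5, 63.1 and 61.3 in shTST, and 72.0, 78.5, 74.8 and 74.2 in overTST. The overTST libraries lay above all others. Against WT it was higher by 0.31 on the log2 scale without an offset (edgeR adjusted p = 1.3e-04) and 0.33 with the transcript length offset (edgeR adjusted p = 4.7e-05). MRPS11 went from 0.32 to 0.39 (edgeR adjusted p = 2.0e-05 with the offset). MRPL42, with the longest transcript, was at 54.9 to 58.1 CPM in WT and 57.2 to 61.7 in overTST, and its log2 fold change went from 0.07 (edgeR adjusted p = 0.34) to 0.31 (edgeR adjusted p = 1.5e-04).

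Other named members had smaller changes with it. MRPL21 was at 0.21 (edgeR adjusted p = 0.00921) and MRPL41 at 0.29 (edgeR adjusted p = 0.000964), and both were still called. The calls of 6 other named members were lost. These were MRPL58, at 0.09 (edgeR adjusted p = 0.215), MRPS34, at 0.10 (edgeR adjusted p = 0.121), MRPS18B, at 0.04 (edgeR adjusted p = 0.556), MRPL14, at 0.12 (edgeR adjusted p = 0.0517), MRPL16, at 0.14 (edgeR adjusted p = 0.127) and MRPS36, at 0.10 (edgeR adjusted p = 0.275). MRPL44 stayed lower, at −0.26 (edgeR adjusted p = 0.00306), and MRPL9 was called lower with the offset, at −0.27 (edgeR adjusted p = 1.8e-04). So were MRPS30, at −0.17 (edgeR adjusted p = 0.0343), and MRPL46, at −0.23 (edgeR adjusted p = 0.00741), the latter named after its value was seen.

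The NRF1 core in the promoter can be set beside these calls. Of the 42 members with a promoter stretch that were called higher in overTST, 6 held it (14.3%), and of the 26 that were not called 0 did. Outside the family, 18.5% of the 567 tested genes with the core were called higher in overTST, and 16.1% of the 9422 without it. The motif was singled out after the members' calls had been seen, so the split among them is a description. For the ETS site the shares were 16.7% and 15.4%, and for the YY1 core 16.7% and 23.1%. Of the 6 members with the NRF1 core, MRPL17, MRPL22 and MRPS18C were called higher with both offsets, and MRPL32, MRPL52 and MRPS18B were not.

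Set against shTST, overTST cells gave a similar picture. In 1 fit of all 12 libraries 46 members were called higher and 0 lower (edgeR), with 1 lower at an unadjusted p under 0.05 and 0 lower with DESeq2 and with limma-voom. Over the 14883 genes tested 16.1% were called higher and 16.9% lower. The members' median log2 fold change was 0.18, against 0.00 over all genes, and in 42 members all overTST libraries lay above all shTST libraries, as in 14.7% of the genes tested. Both comparisons use the same overTST libraries, so their results are not independent. With the exonic length offset 26 were higher and 2 lower (14.9% and 13.0% of all genes), and with the transcript length offset 18 were higher and 3 lower (13.7% and 11.7%).

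By role, 20 of 30 large-subunit proteins with a bacterial counterpart, 12 of 21 specific to mitochondria, 8 of 16 small-subunit proteins with a counterpart and 5 of 10 specific to mitochondria were higher in overTST than in shTST, besides MRPS36. Over all genes 16.1% were. With the transcript length offset these counts were 8, 4, 3 and 3 higher, where 13.7% of all genes were higher. In the same order 0, 2, 0 and 1 were lower with it, and MRPS36 was not called. MRPL41 had a log2 fold change of 0.42 (SE 0.071, edgeR adjusted p = 7.3e-05) and MRPS34 of 0.33 (SE 0.055, edgeR adjusted p = 6.9e-05). MRPS5, a small-subunit protein at the path where the mRNA enters, was at 91.3, 90.4, 91.0 and 86.7 CPM in shTST, 92.2, 89.4, 98.4 and 92.3 in WT, and 103.6, 113.9, 117.7 and 108.0 in overTST. Every overTST library was above all others (log2 fold change 0.30 against shTST, SE 0.048, edgeR adjusted p = 4.4e-05). MRPL28 was at 121.7 to 124.7 CPM in shTST and 140.0 to 157.3 in overTST (log2 fold change 0.29, SE 0.046, edgeR adjusted p = 4.4e-05). With both offsets, as without one, 15 members were called higher, MRPL12, MRPL22, MRPL28, MRPL41, MRPS5, MRPS11 and MRPS34 among them.

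With TST silenced few members changed. Against WT 3 members were called higher and 2 lower, and over the 14584 genes tested 6.69% were called higher and 9.40% lower. The members' median log2 fold change was 0.02, against 0.00 over all genes, and the summed CPM of shTST, 4884 to 5029, lay inside the WT range. The share of members called was below that of all genes in both directions. In 2 members all shTST libraries lay above WT and in 4 below, against 8.37% and 10.8% of the genes tested. The SE of a member's log2 fold change had a median of 0.053, and the median change of the members called higher in overTST was 0.29.

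The members called higher were all large-subunit proteins with a bacterial counterpart. MRPL16 was at 26.6, 24.9, 29.3 and 25.9 CPM in WT and 32.0, 28.1, 33.6 and 30.0 in shTST (log2 fold change 0.22, SE 0.066, edgeR adjusted p = 0.0257). MRPL20 was at 53.9 to 65.1 CPM in WT and 63.7 to 69.7 in shTST (log2 fold change 0.16, SE 0.055, edgeR adjusted p = 0.0445). MRPL17 was at 59.5 to 66.8 in WT and 67.4 to 74.1 in shTST (log2 fold change 0.15, SE 0.049, edgeR adjusted p = 0.0447). The groups overlapped for MRPL16 and MRPL20 but not for MRPL17. None of the 3 calls held without WT replicate 2, where MRPL16 was at 0.18, MRPL20 at 0.11 and MRPL17 at 0.11, nor without WT replicate 4, shTST replicate 1 or shTST replicate 3. The call of MRPL20 was also lost with the transcript length offset (0.11, edgeR adjusted p = 0.106) and with no filter (0.15, edgeR adjusted p = 0.0562). That of MRPL17 was lost with no filter (0.14, edgeR adjusted p = 0.11), with a GC offset (0.13, edgeR adjusted p = 0.0643) and in the fit of all 12 libraries (0.15, edgeR adjusted p = 0.0517). In overTST the same 3 genes were at 0.31, 0.39 and 0.27 against WT, in a comparison that shares the WT libraries.

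The members called lower were MRPL9 and MRPS18A. MRPL9 was at 74.1, 74.2, 81.8 and 78.1 CPM in WT and 68.0, 65.3, 68.6 and 67.3 in shTST, without overlap (log2 fold change −0.19, SE 0.047, edgeR adjusted p = 0.00658). It stayed called with both length offsets and with each library left out in turn. MRPS18A was at 66.8, 70.6, 67.6 and 68.2 CPM in WT and 59.3, 60.4, 64.4 and 62.4 in shTST, again without overlap (log2 fold change −0.15, SE 0.046, edgeR adjusted p = 0.0303). Its call was lost without WT replicate 2 (edgeR adjusted p = 0.0691), WT replicate 4 (0.0823) or shTST replicate 1 (0.121), 2 (0.0922) or 4 (0.0713). It was also lost with upper-quartile scaling (−0.13, edgeR adjusted p = 0.0644) and with a GC offset (−0.10, edgeR adjusted p = 0.0986). Exons of MRPL9 are shared over 38.5% of their length with other annotated genes, OAZ3 among them, and those of MRPS18A over 47.0% with RSPH9. As the use of strand in counting is not stated, reads of these partners may be in both values.

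Over the whole family, 40 members share exon sequence with another annotated gene and 34 have a pseudogene that carries their name. Among the 21 members with neither, 19 were called higher in overTST against WT and 0 lower, with a median log2 fold change of 0.29, where 15.7% of all genes were called higher. With the exonic length offset 12 were higher and 0 lower (median 0.14, 14.2% of all genes higher), and with the transcript length offset 8 higher and 1, MRPS30, lower (median 0.11, 12.3% of all genes higher). Against shTST 15 were called higher, and 10 and 7 with these offsets (16.1%, 14.9% and 13.7% of all genes in turn). In shTST against WT 2 of these 21 were called higher (9.52%) and 0 lower, against 6.69% and 9.40% of all genes.

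The 5 mitoribosomal proteins with other symbols were read beside the members. GADD45GIP1, of the large subunit, went from 88.0 ± 6.73 CPM in WT to 113.5 ± 6.63 in overTST (SD, n = 4 each; log2 fold change 0.37, edgeR adjusted p = 3.2e-05). DAP3, a GTP-binding protein of the small subunit, was at 98.8 ± 1.29 in WT and 114.2 ± 2.59 in overTST (log2 fold change 0.21, edgeR adjusted p = 0.00123). AURKAIP1 (0.25) and CHCHD1 (0.31) were also called higher, and PTCD3 was at −0.11 (edgeR adjusted p = 0.145). In shTST against WT the 5 lay between AURKAIP1 at −0.11 (edgeR adjusted p = 0.104) and CHCHD1 at 0.12 (edgeR adjusted p = 0.284). AURKAIP1 was called lower there with the transcript length offset (−0.14, edgeR adjusted p = 0.0117).

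Of 26 genes that assemble the mitochondrial ribosome or modify its rRNA, 6 (23.1%) were higher in overTST and 1 lower against WT (median log2 fold change 0.08), where 15.7% of all genes were higher and 18.2% lower. RBFA, which matures the small subunit, had a log2 fold change of 0.40 (edgeR adjusted p = 3.7e-05), and METTL15, an rRNA methyltransferase, of −0.42 (edgeR adjusted p = 0.00214). In shTST, MRM2, an rRNA methyltransferase, was higher (0.20, edgeR adjusted p = 0.00637). The 3 lower (11.5%, against 9.40% of all genes) were RPUSD3 (−0.24, edgeR adjusted p = 0.00364), NOA1 (−0.23, edgeR adjusted p = 0.00665) and MRM1 (−0.25, edgeR adjusted p = 0.0306), the last named after its value was seen.

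Of 16 mitochondrial translation factors, 6 were higher and 4 lower in overTST than in WT (37.5% and 25% of them, against 15.7% and 18.2% of all genes; median 0.09). With either length offset 4 were higher and 2 lower. SLIRP, an RNA-binding protein that stabilises mitochondrial mRNAs, had a log2 fold change of 0.51 (edgeR adjusted p = 1.8e-05). Its partner LRPPRC had one of −0.21 (edgeR adjusted p = 0.00406) and was not called with either length offset. GFM2, which takes part in ribosome recycling, was lower (−0.39, edgeR adjusted p = 3.0e-04). In shTST against WT the median of the 16 was 0.03 and none was called by edgeR.

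The 13 mRNAs that the mitochondrial ribosome translates were each higher in overTST than in WT (13 of 13, median log2 fold change 0.42), where 15.7% of all genes were. With either length offset 1 of 13 was called higher, where 14.2% (exonic) and 12.3% (transcript) of all genes were. All 13 were still above 0 (median 0.25 with the exonic and 0.24 with the transcript length offset). Against shTST 13 of 13 were higher, and 13 with the exonic and 12 with the transcript length offset (16.1%, 14.9% and 13.7% of all genes in turn). In shTST against WT all 13 were below 0 (median −0.20), and 1 was called lower (7.69%, against 9.40% of all genes). The share of counts on mitochondrially encoded genes was 6.91% to 11.98% in WT, 6.84% to 8.65% in shTST and 10.8% to 11.7% in overTST. Leaving those genes out of the counts gave 49 members higher and 0 lower in overTST against WT. Of 86 cytosolic ribosomal proteins tested, 78 were called higher in overTST and 0 lower (median 0.29). That is 90.7% higher, against 61.5% of the members and 15.7% of all genes. With the transcript length offset 43 were higher and 2 lower (median 0.13), where 12.3% of all genes were called in each direction. In shTST 23 of the 86 were higher (26.7%) and 0 lower (median 0.10), against 6.69% and 9.40% of all genes.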

How the data were processed

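RNA of 12 HepG2 cultures was sequenced at Azenta Life Sciences. The authors deposited raw read counts per Ensembl gene, with exonic lengths. Per the submitters' processing notes, Trimmomatic 0.36, STAR 2.5.2b, featureCounts and Subread 1.5.2 were used with GRCh38. The annotation and the use of strand are not given in the sources used here. Symbols came from GENCODE 29 (56898 of 57500 identifiers matched), where 77 of 78 members have the same coordinates.

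Groups were taken from the labels. Counts were filtered with edgeR's filterByExpr, scaled by TMM and put to the quasi-likelihood test of edgeR (R 4.3.3, edgeR 4.0.16, limma 3.58.1, DESeq2 1.42.0), adjusted by the Benjamini-Hochberg method over all genes, and called at an adjusted p of 0.05 or less. Each comparison with WT used its 8 libraries, and overTST against shTST used all 12. The SE is the log2 fold change over the square root of F. CPM and RPKM used 1 scaling of the 12 libraries. Length offsets were lowess trends (span 0.3) with exonic length, or with the length of 1 transcript. At 22911380 to 45120508 counts per library, the spread between replicates (biological coefficient of variation 5.85% to 6.41%) set the error. The 18 replicate pairs differed beyond sampling noise. The steps were tested on simulated data.

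The members and gene lists were chosen with earlier results of these data known. Named members were up to 6 in each direction and comparison with the smallest p among those called, up to 4 likewise with the exonic length offset, the 3 highest and 3 lowest by RPKM, and those with special roles, and the lists of other genes were named likewise.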

Additional observations from a re-analysis of the deposited data

Results flagged for a closer look

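Of 90 groups of 4 libraries examined, for the 28 named members, TST and the summed CPM of the members, 4 had a library far from the other 3 by Dixon's criterion, and chance gives about 1 in 20 groups. MRPL53 was at 4.692 CPM in WT replicate 4, against 3.448 to 3.568 in the other WT libraries. MRPS18B was at 142.9 CPM in overTST replicate 2, against 123 to 125.2. MRPS30 was at 36.28 CPM in shTST replicate 2, against 33.59 to 34. TST was at 36.55 CPM in shTST replicate 3, against 32.99 to 33.57, and still below every WT library.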

How the results depend on the processing

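Under the 13 alternatives beside leaving out libraries, no named member or TST changed sign while called with or without the alternative. Over all 78 members, the change in overTST against WT turned sign in 14 with the exonic and in 20 with the transcript length offset, of which MRPS12 and MRPS28 had been called higher, and against shTST in 16 and 20, MRPL15 among them, called higher without an offset. In overTST against WT, 48 members were called higher, and 25 with the transcript length offset, which was chosen after seeing the data. The 1 call lower became 0 with DESeq2, limma-voom, RLE or upper-quartile scaling or without mitochondrially encoded genes, 3 with the exonic length offset and 4 with the transcript length offset. In overTST against shTST, the 46 higher became 26 with the exonic and 18 with the transcript length offset, and the 0 lower became 2 and 3. In shTST against WT, the 3 higher became 5 with DESeq2, 6 with upper-quartile scaling or a GC offset and 1 with no filter, and the 2 lower became 1 with upper-quartile scaling and 4 with either length offset. TST in overTST against WT was at 0.0965 with the exonic length offset (edgeR adjusted p = 0.201) and 0.149 with the transcript length offset (0.0507). Apart from the length offsets, which remove a trend by construction, the cause was not tested.

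Leaving out each library in turn gave 41 to 49 higher and 0 to 1 lower in overTST against WT, 38 to 49 higher and 0 lower against shTST, and 0 to 5 higher and 1 to 2 lower in shTST against WT. With the exonic length offset as well, an alternative chosen after seeing the data, these were 24 to 36 and 3 to 4, 22 to 29 and 1 to 4, and 0 to 4 and 2 to 4. Within these ranges, 27 were higher in overTST against WT without WT replicate 1 or 4, and against shTST 27 were without WT replicate 2 or shTST replicate 3 and 23 without shTST replicate 1. In shTST against WT the exonic length offset gave 1 higher without WT replicate 2 or shTST replicate 4.

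No large signal was shared by samples with the same replicate number. Over 12 such pairs, deviations from the group means correlated at −0.0527 to 0.0801, 0 of them over 0.1. Low correlations cannot exclude that the samples were paired. With the replicate block, 49 members were higher in overTST against WT, 48 higher and 1 lower against shTST, and 6 higher and 4 lower in shTST against WT. With the block and the exonic length offset together, 4 were lower in overTST against WT, 28 higher and 3 lower against shTST, and 5 lower in shTST against WT, and TST in overTST against WT was at 0.0944 (edgeR adjusted p = 0.159).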
